A study of Rattus norvegicus with 21 samples.

Results

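ChREBP is a transcription factor that couples glucose metabolism to gene expression, and 7 genes tied to it were followed here in rat islets: Txnip, Arrdc4, Mlxipl, Mlx, Pklr, Acaca and Fasn. They were chosen by name as ChREBP itself, its partner and its known targets. Of these 7, 6 matched a row of the count table, which holds 28914 rows, and all 6 were among the 13136 rows that passed the filter on low counts. Mlxipl, which encodes ChREBP itself, was not analysed here. The libraries came from polyadenylated RNA of islets of Lewis rats 4 weeks after surgery. The PX group (n = 11) had 90% of the pancreas removed and the sham group (n = 10) had a sham operation, and no genotype, transgene or drug is given for either. The labels also give 4 to 5 weeks with the strain, without saying whether this is an age. Each title carries an average blood glucose value before sacrifice, called BG here and given without a unit, which ran from 101 to 174 in PX and from 82 to 104 in sham. The labels do not say whether an animal gave more than 1 library, and p-values measure only the spread between these libraries.

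ChREBP and its paralog MondoA (Mlxip) pair with Mlx and bind carbohydrate response elements, which are pairs of E-box-like motifs, when glucose metabolites build up in the cell. Txnip and Arrdc4 are alpha-arrestins and are among the most glucose-responsive of the known targets, and Txnip protein binds and inhibits thioredoxin and restrains glucose uptake. In the liver ChREBP also drives Pklr, the liver-type pyruvate kinase of the last step of glycolysis, and the lipogenic enzymes Acaca and Fasn. In beta cells, Txnip is known as a glucose-induced gene linked to apoptosis.

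RefSeq promoter windows of the GRCr8 rat assembly (250 bases before to 50 after the annotated start) matched 4 of the 7 genes by symbol: Arrdc4, Mlxipl, Mlx and Pklr. The 250 bases before the start of the 3 that were also measured are printed on the gene's strand, because they differ in which E-box-like motif they hold. They lie at chr1:131793426-131793675 on the minus strand for Arrdc4, chr10:86519636-86519885 on the plus strand for Mlx and chr2:176841014-176841263 on the plus strand for Pklr. Capitals mark CACGTG and CCAAT (or its reverse ATTGG) in Arrdc4 and Mlx, and in Pklr the match to an inverted pair of E-box-like motifs (CANGNG, any 5 bases, then CNCNTG), the arrangement of known carbohydrate response elements.
Arrdc4: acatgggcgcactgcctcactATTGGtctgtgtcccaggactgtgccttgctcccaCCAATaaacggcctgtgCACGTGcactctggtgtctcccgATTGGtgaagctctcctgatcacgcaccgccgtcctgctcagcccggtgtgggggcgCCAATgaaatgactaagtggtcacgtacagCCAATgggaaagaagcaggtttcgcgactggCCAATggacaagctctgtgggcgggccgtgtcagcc
Mlx: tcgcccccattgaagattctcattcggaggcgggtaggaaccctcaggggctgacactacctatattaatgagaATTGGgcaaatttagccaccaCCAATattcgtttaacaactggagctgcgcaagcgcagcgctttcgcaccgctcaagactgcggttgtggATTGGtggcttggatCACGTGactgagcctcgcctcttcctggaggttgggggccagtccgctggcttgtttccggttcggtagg
Pklr: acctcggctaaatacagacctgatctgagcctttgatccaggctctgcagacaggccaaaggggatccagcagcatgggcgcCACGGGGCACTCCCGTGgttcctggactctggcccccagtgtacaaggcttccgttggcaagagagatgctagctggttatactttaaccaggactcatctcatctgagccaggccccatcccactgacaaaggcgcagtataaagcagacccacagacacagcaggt
Arrdc4 held the E-box CACGTG at positions -177 to -172 from the start and 6 CCAAT boxes, counted on both strands. Mlx held CACGTG at positions -70 to -65 and 3 CCAAT boxes. Pklr held neither, and its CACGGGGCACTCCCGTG spanned positions -168 to -152. None of the matches printed overlapped another. Among 33469 rat promoter windows of the same length, both strands searched, 6.42% held CACGTG, 37.5% held CCAAT and 0.562% held the inverted pair. A direct-repeat form (CACGNG, any 5 bases, then CACGNG) was in 0.0359% of windows and in none of the 3 printed. The inverted form was added after the sequences had been read. A match describes the letters only.

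Library totals ran from 4001908 to 13187959 counts. Islet markers were present in every library, and markers of endocrine and of other cells differed between the groups. Beta cell markers held 3.64 to 18.9% of counts in PX and 9.29 to 18.6% in sham. The beta cell score (mean log2 CPM of its markers) was lower in PX by -0.25 and the alpha and delta cell score by -0.78 (permutation tests, adjusted p = 0.029 and 0.0022 over 9 scores). Of 9 tested beta cell markers, 3 fell and 1 rose, and of 6 tested alpha and delta cell markers, 4 fell and 0 rose. Counts of markers here are to be read beside all genes tested, of which 14.9% were called higher and 16.2% lower. The part of endocrine cells in the falls of Pklr and Acaca between the groups was not tested. Relations of both genes to the beta cell score within groups are given below. Acinar markers held 6.10 to 48.4% in PX (median 16.9%) and 0.622 to 23.2% in sham (median 9.39%). PX 65 stood apart, with the highest acinar share and a TMM scaling factor of 0.359. Macrophage markers held 0.0213 to 0.158% in PX against 0.00500 to 0.0166% in sham, and all 14 tested rose. Some of the 14 had low counts in sham, such as Tyrobp at a median of 0.64 CPM and Laptm5 at 0.92. Their place among the tested genes leaned on their PX counts. Mesenchymal markers held 0.0626 to 0.333% in PX against 0.0250 to 0.0968% in sham, and 10 of 11 tested rose. In bulk islets, fewer cells of a type and less RNA per cell cannot be told apart.

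Txnip was the 1 gene of the 6 that rose in PX, Pklr and Acaca fell, and Arrdc4, Mlx and Fasn did not pass the test (edgeR quasi-likelihood, Benjamini-Hochberg adjusted over all genes tested). Of all 13136 genes, 31.1% were called, 14.9% higher and 16.2% lower, against which the 3 of 6 called here are to be read. The median log2 fold change of the 6 was -0.11, against -0.04 over all genes tested. The groups overlapped for every one of the 6, whereas 1.7% of all genes had groups that did not overlap (1.55% with PX higher and 0.145% with PX lower).

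**Figure D1:**
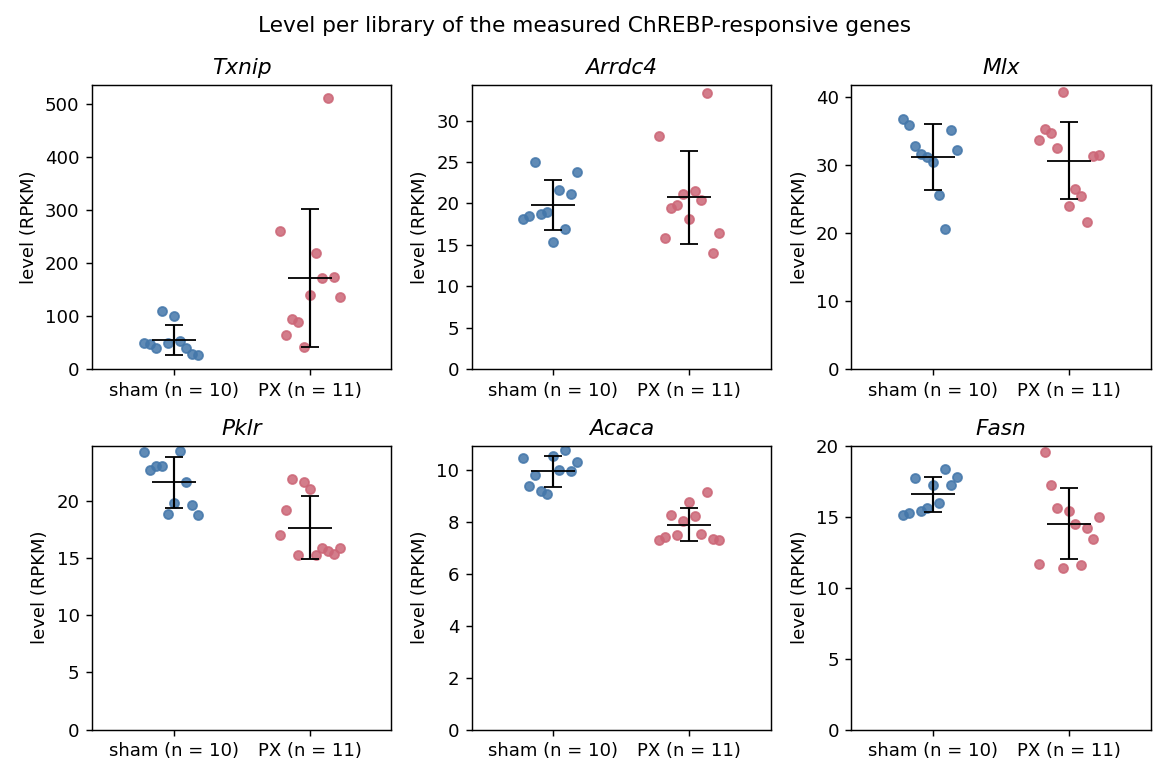
Level of each measured gene in RPKM (y axis, from 0) in 10 sham and 11 PX libraries, 1 point per library. Txnip has the widest spread, with PX 65 far above the rest, and 10 of the 11 PX points for Acaca lie below all sham points.

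Txnip counts scaled to library size (CPM) ran from 70.8 to 303 in sham, with a median of 133, and from 114 to 1411 in PX, with a median of 386. The PX islets above every sham library were PX 65 at 1411 CPM, PX 36 at 716, PX 58 at 602, PX 66 at 478, PX 62 at 471, PX 57 at 386 and PX 70 at 372. The other 4, PX 38 at 261 CPM, PX 41 at 243, PX 37 at 175 and PX 44 at 114, lay within the sham range, whose top was set by sham 46 at 303 CPM and sham 48 at 273. The means were 475 ± 359 CPM (SD, n = 11) in PX and 149 ± 77.6 CPM (SD, n = 10) in sham. The log2 fold change was 1.67 ± 0.37 (SE), or 3.19-fold, with an edgeR adjusted p of 0.00188. Txnip was also the most variable of the 6 within a group, with a coefficient of variation of 75.5% in PX and 52.0% in sham, where Acaca had 8.19% and 5.91%.

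The height of the top PX values rested on the scaling. On library totals without TMM factors, PX 36 was highest at 836 CPM, PX 65 came to 505 CPM, and 6 of 11 PX libraries lay above every sham library. The log2 fold change was 1.36 without PX 65 and 1.27 on library totals, both still called. In the authors' deposited table, Txnip had a log2 fold change of 1.51 and an adjusted p of 0.00196.

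Txnip levels also differed between runs of animal numbers. All 6 PX libraries numbered 57 to 70 were at 372 CPM or more, and of the 5 numbered 36 to 44 only PX 36 was. The acinar marker share was 16.9 to 48.4% of counts in the first set and 6.10 to 16.2% in the second. No run of numbers holds both groups, so no PX value within a run has a sham value beside it. Sham numbers 46 to 50 held 12.9 to 23.2% acinar counts and 109 to 303 CPM of Txnip. The other sham libraries held 0.622 to 5.91% and 70.8 to 137 CPM. With the acinar score as a covariate, Txnip was at 1.15 on the log2 scale (edgeR adjusted p = 0.0255). With macrophage and mesenchymal scores instead, a fit described below, it was at -0.21 (edgeR adjusted p = 0.913).

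Arrdc4, an alpha-arrestin like Txnip, ran from 65.5 to 107 CPM in sham (median 80.7) and from 60.1 to 143 CPM in PX (median 84.9). PX 65 and PX 36, the libraries with the most Txnip, also held the most Arrdc4, at 143 and 120 CPM, and the other 9 PX libraries lay at 92.0 CPM or below, within or under the sham range. The means were 88.8 ± 23.95 CPM (SD, n = 11) in PX and 84.8 ± 13.0 CPM (SD, n = 10) in sham. The log2 fold change of 0.07 ± 0.13 (SE) did not pass the test (edgeR adjusted p = 0.724), and its sign turned on library totals (-0.22) and without PX 65 (-0.02).

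The ratio of Txnip to Arrdc4 within a library does not depend on scaling. In RPKM, which divides by gene length, it was 1.08 to 6.48 in sham and 1.95 to 15.4 in PX, and 7 of 11 PX libraries lay above every sham library. The log2 ratio was higher in PX by 1.47 (permutation test, two-sided, p = 0.0014, Benjamini-Hochberg adjusted over 15 ratios p = 0.0053). Leaving out any 1 library kept this difference between 1.33 and 1.65. These ratios were added after the member values had been seen.

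**Figure D2:**
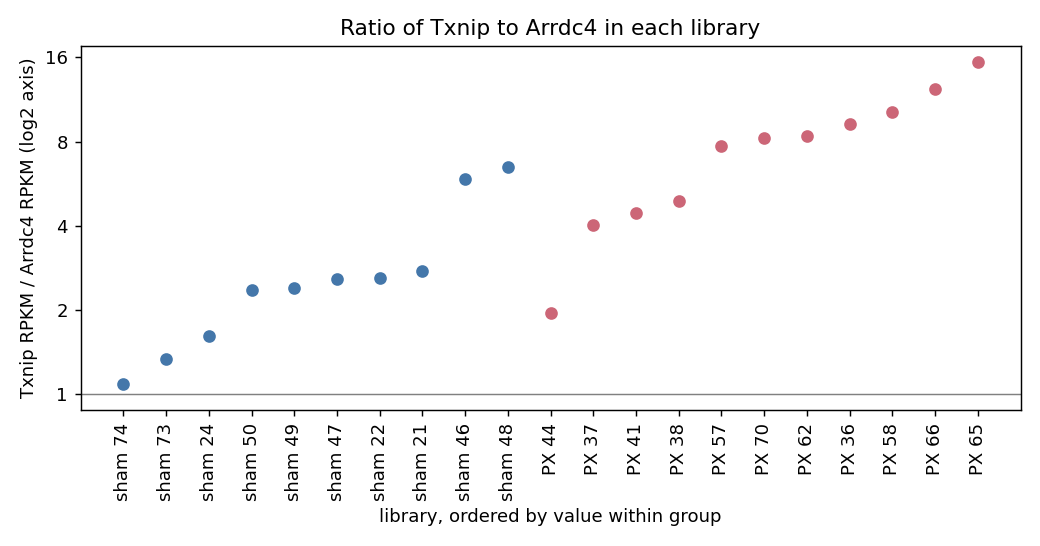
Ratio of Txnip to Arrdc4 RPKM in each library (y axis, log2 scale), libraries ordered by value within sham and PX. Sham values span 1.08 to 6.48 and PX values 1.95 to 15.4, with PX 44 the lowest of its group.

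Mlx, the shared partner of ChREBP and MondoA, ran from 39.9 to 71.0 CPM in sham and from 41.7 to 78.7 CPM in PX, with medians of 61.6 and 60.7. The groups overlapped almost wholly. Its mean was 59.2 ± 11.0 CPM (SD, n = 11) in PX and 60.3 ± 9.41 CPM (SD, n = 10) in sham, and the log2 fold change of -0.03 ± 0.11 (SE) did not pass the test (edgeR adjusted p = 0.882). Its sign turned under 3 of 4 other scalings and in all but 8 of the 21 fits without 1 library, so no direction is given. Exons of Mlx overlap those of Psmc3ip on the opposite strand in the count table, and the strand setting of the counting is not given, so their reads may be mixed.

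Pklr ran from 95.8 to 124 CPM in sham, with a median of 113, and from 78.0 to 112 CPM in PX, with a median of 81.1. The PX libraries formed a low set of 7, all at 87.0 CPM or below and under every sham library, while PX 38, PX 44, PX 57 and PX 37 lay within the sham range at 97.9 to 112 CPM. The means were 90.1 ± 14.0 CPM (SD, n = 11) in PX and 110 ± 11.2 CPM (SD, n = 10) in sham, a log2 fold change of -0.29 ± 0.09 (SE), or 0.817-fold (edgeR adjusted p = 0.0158). The call was lost without sham 21, sham 22, sham 24, sham 46, PX 36 or PX 41, with adjusted p up to 0.0655. Exons of Pklr overlap those of Hcn3 on the opposite strand, with the same limit as for Mlx.

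Acaca, acetyl-CoA carboxylase of the first committed step of fatty acid synthesis, ran from 61.6 to 73.1 CPM in sham (median 67.8) and from 49.5 to 62.2 CPM in PX (median 51.1). PX 65 at 62.2 CPM was the only PX library to reach the sham range, and the other 10 lay below it. The means were 53.6 ± 4.39 CPM (SD, n = 11) in PX and 67.5 ± 3.99 CPM (SD, n = 10) in sham. The log2 fold change was -0.33 ± 0.07 (SE), or 0.794-fold, with an edgeR adjusted p of 6.8e-04. It was called in every fit without 1 library, at -0.35 to -0.27.

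Fasn, fatty acid synthase, ran from 138 to 168 CPM in sham (median 152) and from 104 to 179 CPM in PX (median 132). In PX, 7 libraries lay below every sham library and PX 37 lay above all of them. The means were 133 ± 22.9 CPM (SD, n = 11) in PX and 152 ± 11.2 CPM (SD, n = 10) in sham, and the log2 fold change of -0.19 ± 0.09 (SE) did not pass the test (edgeR adjusted p = 0.110). Adipocytes also make much Acaca and Fasn. Of 12 adipocyte markers 1 was tested, Fabp4, which macrophages and endothelial cells also express, at a median of 28.9 CPM in PX and 9.92 in sham. The adipocyte score, which rests on Fabp4 alone, was 4.98 ± 0.752 (SD, n = 11) in PX and 3.49 ± 0.409 (SD, n = 10) in sham (permutation test, adjusted p = 1.1e-04). Of the 11 markers under the filter, Cidec and Cfd had higher medians in PX, at 1.69 against 0.34 CPM and 1.42 against 0.30 CPM. Adipoq had at most 9 reads in a library, and Plin1, Lep and Plin4 were at 0 in 20 of 21 libraries. With that score as a covariate, Acaca was at -0.36 (edgeR adjusted p = 0.209) and Fasn at 0.029 (edgeR adjusted p = 0.981). The score accounted for 0.619 of the variance of the group term (R squared), so the group and this score cannot be told apart in that fit.

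Scaling moved these falls together. On library totals the median of all genes was -0.28, a shift downward from -0.04, and the log2 fold changes were -0.51 for Pklr, -0.58 for Acaca and -0.41 for Fasn. Pklr and Acaca were called there and under 3 other scalings, and Fasn was not called under any of the 4. Over all genes, 990 were called higher and 2227 lower on library totals, against 1961 and 2127 with TMM factors. The ratio of Txnip to Pklr was higher in PX by 1.81 on the log2 scale and that of Txnip to Acaca by 1.84 (permutation tests, adjusted p = 0.0038 for both). The ratio of Arrdc4 to Acaca was higher in PX by 0.37 (adjusted p = 0.016, permutation test), with 6 PX libraries above all sham libraries. The ratio of Pklr to Acaca differed by 0.03 (adjusted p = 0.73, permutation test). In all, 6 of the 15 ratios passed, which were the 5 with Txnip and that of Arrdc4 to Acaca. The 5 with Txnip share its 1 rise, already called above, and are not separate results.

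**Figure D3:**
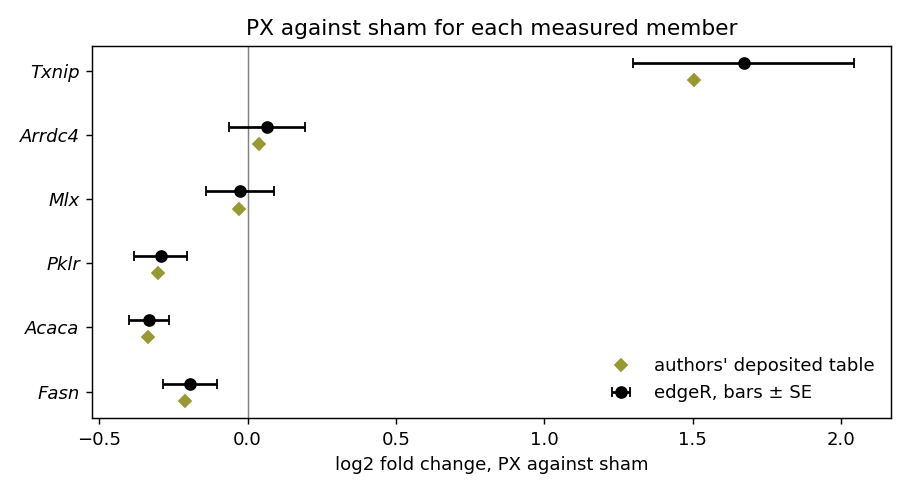
Log2 fold change of PX against sham for the 6 measured genes (x axis), from edgeR with bars of ± 1 SE and from the authors' deposited table as diamonds. Txnip is the only gene far above 0, and Pklr, Acaca and Fasn lie below 0 in both, which rest on the same counts.

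The authors' deposited table gave the other genes log2 fold changes of 0.04 for Arrdc4, -0.03 for Mlx, -0.30 for Pklr, -0.33 for Acaca and -0.21 for Fasn. Its adjusted p was 0.0128 for Pklr, 6.2e-04 for Acaca and 0.0787 for Fasn. The calls at an adjusted p of 0.05 were the same for these 6 genes in that table and in the edgeR fit. That table is not a separate source, since limma voom on the same counts also gave Txnip 1.51, Pklr -0.30 and Acaca -0.33.

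Per gene length, Txnip was highest of the 6 in both groups, with a mean level of 54.1 ± 28.1 RPKM (SD, n = 10) in sham and 172 ± 130 RPKM (SD, n = 11) in PX. Sham levels then fell in the order Mlx at 31.3 ± 4.88 RPKM, Pklr at 21.6 ± 2.20, Arrdc4 at 19.8 ± 3.04, Fasn at 16.6 ± 1.23 and Acaca at 9.93 ± 0.587. In PX the order was Mlx at 30.7 ± 5.71 RPKM, Arrdc4 at 20.7 ± 5.59, Pklr at 17.7 ± 2.74, Fasn at 14.5 ± 2.51 and Acaca at 7.89 ± 0.646. Among neighbours in these orders, only Fasn and Acaca, and in PX Txnip and Mlx, had ranges that did not overlap. Pklr was above Arrdc4 in 6 of 10 sham libraries and Arrdc4 above Pklr in 6 of 11 PX libraries, so those neighbours did not differ beyond their spread.

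Within PX, no gene of the 6 passed the test for a slope on BG, and 0% of the 11196 genes tested did (edgeR). At an unadjusted p under 0.05 there were 1439 genes, 1 of them a member, and DESeq2 called 11 genes upward and 7 downward. The Txnip slope was 0.21 ± 0.09 (SE) log2 units per 10 BG units (adjusted p = 0.373, edgeR), and it was -0.01 without PX 65, the library with the highest BG (174). It was 0.055 ± 0.085 on library totals and 0.84 ± 0.40 among the PX animals with BG of 121 or less, neither passing (edgeR adjusted p = 0.678 and 0.964). PX 41 and PX 57, next in BG at 156 and 140, held 243 and 386 CPM, below PX 36 and PX 58 at BG of 121 and 114. The slope of Arrdc4 was 0.08 ± 0.04 and that of Mlx -0.08 ± 0.04 (adjusted p = 0.399 and 0.397, edgeR). The slopes of Pklr, Acaca and Fasn lay between -0.03 and 0.02.

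**Figure D4:**
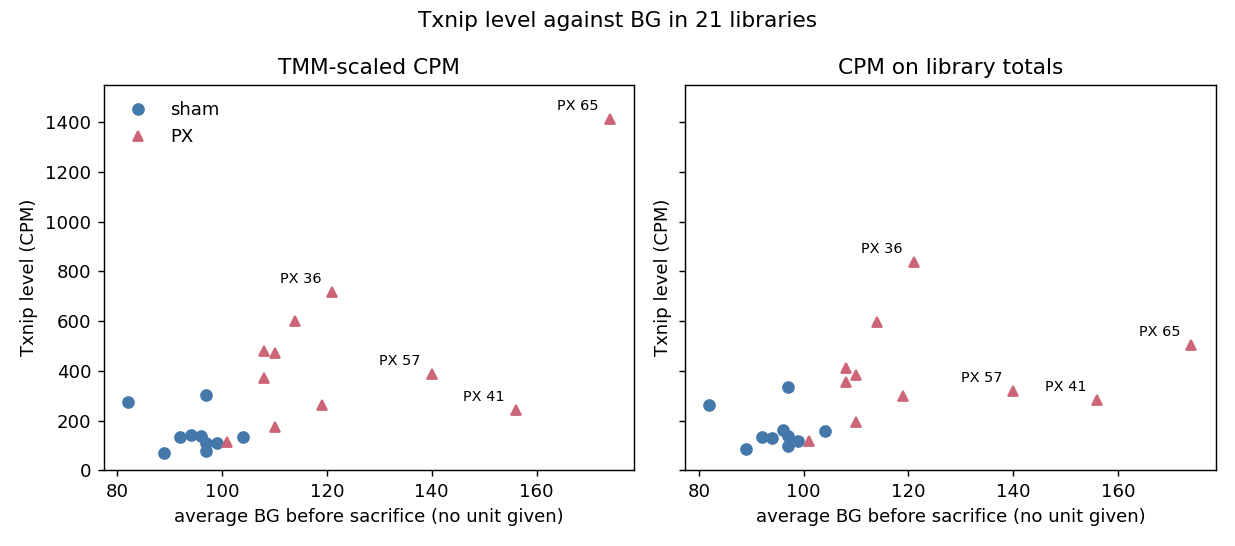
Txnip CPM (y axis) against average BG before sacrifice (x axis, no unit given) in 21 libraries, with TMM-scaled CPM on the left and CPM on library totals on the right. PX 65 at BG 174 falls from 1411 to 505 CPM between the panels.

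Within sham, where BG spans 82 to 104, 0% of 11532 genes passed (edgeR), with 77 at an unadjusted p under 0.05, none of them a member. The Txnip slope there was -0.32 ± 0.32 (SE). The difference in slope between PX and sham was called for 0% of 13136 genes (145 at an unadjusted p under 0.05, none a member), and for Txnip it was 0.55 ± 0.39 (adjusted p = 1.0, edgeR). Comparing only the PX animals with BG of 121 or less with sham, the Txnip log2 fold change was 1.47 (edgeR adjusted p = 0.00586). BG ran from 101 to 121 in the PX animals kept and from 82 to 104 in sham, so the groups were not matched for BG. In the same comparison Pklr was at -0.23 and did not pass (edgeR adjusted p = 0.0762).

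Whether the 6 genes varied together within groups rested on the scaling. Over 21 libraries, with each group's mean removed, none of 15 pairs passed a permutation test after adjustment with TMM-scaled values. Txnip and Arrdc4 had r = 0.25 and rho = 0.04 (adjusted p = 0.64 for r), and Txnip and Mlx had r = -0.51 and rho = -0.54 (adjusted p = 0.21 for r). On library totals all 10 pairs without Txnip passed, with r from 0.55 for Arrdc4 and Fasn to 0.92 for Pklr and Acaca (adjusted p = 0.028 and 7.5e-05, permutation), and none of the 5 pairs with Txnip did, Txnip and Arrdc4 being at r = -0.13. With TMM-scaled values but without the 2 libraries farthest from the median of Txnip (PX 44 and PX 65), Txnip and Fasn had r = -0.67 (adjusted p = 0.019, permutation). Among 8223 genes with a mean of at least 10 CPM, Arrdc4 ranked 1993 and Acaca 2518 in likeness to Txnip by this r, and Fasn, Pklr and Mlx ranked 5617, 6135 and 7448. The genes most like Txnip over the 21 libraries were Lbh (r = 0.87), Prcp (r = 0.86), Carhsp1 (r = 0.83), Stk39 (r = 0.82) and Tpt1 (r = 0.82). Those most opposite were Dido1 (r = -0.85), Gabrb1 (r = -0.85) and Ino80e (r = -0.83). These r are descriptions over libraries that share their scaling, and on library totals they were 0.66 for Lbh, 0.77 for Prcp and -0.42 for Dido1.

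The members were also set against the scores (mean log2 CPM) of 4 marker lists, 24 relations in all, added after the values had been seen. The relation of Mlx to the acinar score was the only one to pass, with r = -0.62 and rho = -0.73 (adjusted p = 0.038 and 0.0062, permutation), r = -0.63 without the 2 libraries farthest from the median score, and r = -0.81 within PX and -0.52 within sham. Txnip and the acinar score had r = 0.56 and rho = 0.59 (adjusted p = 0.053 for r, permutation), with 0.63 within PX and 0.60 within sham. Txnip and the macrophage score had r = 0.56 and rho = 0.55 (adjusted p = 0.16 for r, permutation), with 0.55 within PX and 0.64 within sham. Pklr and the beta cell score had r = 0.48 (adjusted p = 0.2, permutation), with 0.65 within PX and 0.02 within sham. Acaca and the beta cell score had r = 0.06 (adjusted p = 0.89, permutation). The acinar score was 11.9 ± 1.30 (SD, n = 11) in PX and 10.1 ± 2.15 (SD, n = 10) in sham. With that score as a covariate, Pklr did not pass (-0.25, edgeR adjusted p = 0.0898).

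The macrophage score was 4.24 ± 0.916 (SD, n = 11) in PX and 1.76 ± 0.396 (SD, n = 10) in sham, and the mesenchymal score 5.94 ± 0.583 and 4.32 ± 0.449. With both as covariates no member was called. Txnip was then at -0.21 ± 0.74 (SE, edgeR adjusted p = 0.913), Pklr at -0.01 (adjusted p = 0.978) and Acaca at -0.29 (adjusted p = 0.283). The scores accounted for 0.770 of the variance of the group term (R squared), so the group and these cell types cannot be told apart in that fit, in which only 8 genes in all were called higher and 2 lower.

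Genes around the members were read from 5 lists of the pathway, each count to be set beside the 14.9% of all genes called higher and 16.2% called lower. Of the 17 tested genes of the Mondo and Mlx network and its regulators, 2 rose, 4 fell and 11 did not pass, with a median of -0.25. Leaving out 1 library gave 1 to 2 higher and 1 to 4 lower, with 1 lower without sham 21, 22, 24, 73 or 74 or PX 41. Mlxip, which encodes MondoA, went from 21.5 CPM in sham to 17.2 in PX and did not pass (-0.33 ± 0.19, edgeR adjusted p = 0.192). Mnt and Mga, which pair with Max and can oppose Myc, fell, Mnt from 31.8 to 19.9 CPM (-0.68 ± 0.20, adjusted p = 0.0112) and Mga from 202 to 159 CPM (-0.35 ± 0.11, adjusted p = 0.0167), the call of Mga being lost in 6 of 21 fits without 1 library. Prkaa2, a catalytic subunit of the energy sensor AMPK, fell from 16.2 to 11.6 CPM (-0.48 ± 0.17, adjusted p = 0.0301). That call was lost in 11 of 21 fits without 1 library and under 3 of 4 other scalings. Ogt also passed, but its call was lost in 18 of those 21 fits and under 3 of 4 other scalings. Nr1h3, the nuclear receptor LXR alpha, rose from 2.09 to 5.62 CPM (1.42 ± 0.26, adjusted p = 2.2e-04). Myc, the other called higher, averaged 2.62 CPM in sham and 5.85 CPM in PX. Its call was lost in 12 of 21 fits without 1 library and on library totals. Myc also fell under the count filter in sham alone and entered the test through its PX counts, so no fold or p is given. Nr1h3 is also known in macrophages, whose markers held a larger share of counts in PX, and their part in its rise was not tested.

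Of 16 tested genes among other known ChREBP or MondoA targets, 9 rose and none fell, with a median of 0.47. Hk2, a hexokinase that is low in normal beta cells, averaged 1.65 CPM in sham (0.777 to 2.84) and 10.6 CPM in PX (3.03 to 28.9). Some of the 9, Hk2 and Pfkfb3 among them, fell under the count filter in sham alone. They entered the test through their PX counts, so no fold or p is given for Hk2 and Pfkfb3. The count of 9 and the median of 0.47 include such genes and rest in part on that filter. Bhlhe40, a circadian repressor, went from 10.4 to 24.3 CPM (1.22 ± 0.23, edgeR adjusted p = 3.6e-04). Tkt, the transketolase of the pentose phosphate pathway, rose by 0.55 ± 0.12 (adjusted p = 0.00165), a call lost on library totals. Klf10, Gpd1, Acacb and Pfkfb3 were among the others that rose, but the call of Klf10 was lost in 10 of 21 fits without 1 library, and those of Klf10, Gpd1 and Acacb were lost on library totals. Rgs16 at 38.9 CPM in sham and 45.0 in PX did not pass (0.21 ± 0.16, adjusted p = 0.350), nor did Acly, the ATP citrate lyase that supplies acetyl-CoA, at 1711 and 1397 CPM (-0.29 ± 0.15, adjusted p = 0.129). On library totals 3 of these targets were called higher and 1 lower, with a median of 0.18, and without PX 65 the count was 6 higher.

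**Figure D5:**
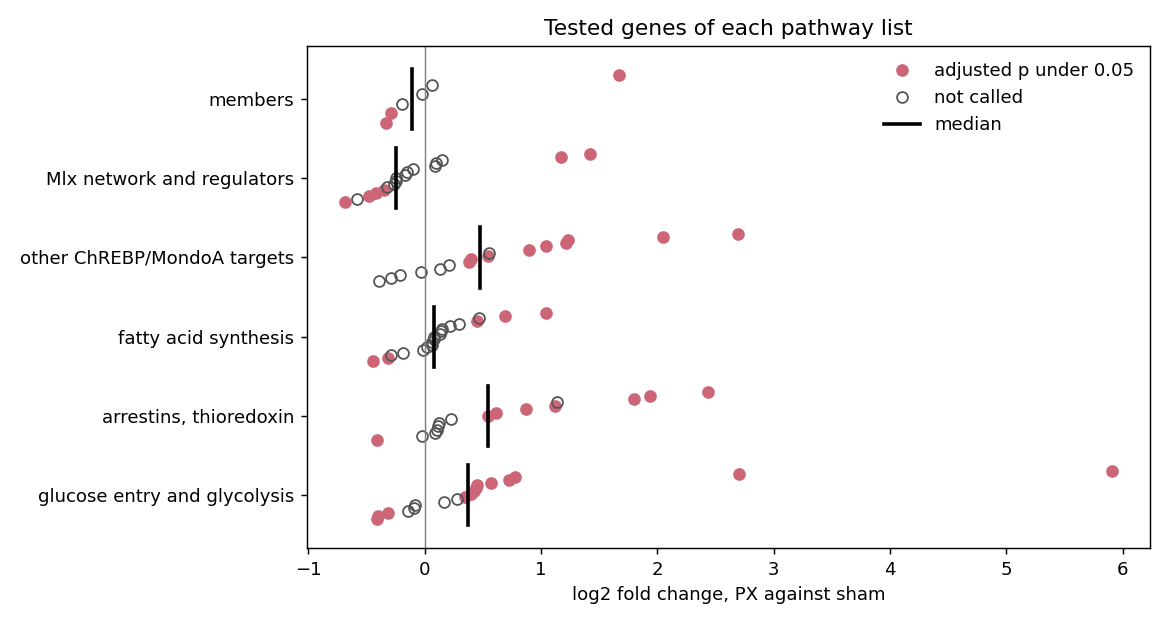
Log2 fold change of PX against sham (x axis) for each tested gene of the members and of 5 pathway lists, filled points for an adjusted p under 0.05, open points for genes not called and a black line at each median. The medians of the other ChREBP or MondoA targets and of the arrestin and thioredoxin list lie at 0.47 and 0.54, and that of the Mlx network at -0.25. All of these medians include genes that fell under the count filter in sham alone.

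Fatty acid synthesis and its SREBP control were mixed, with 3 of 19 tested genes higher, 2 lower and a median of 0.08, which turned to -0.15 on library totals. Srebf2, the regulator of sterol synthesis, fell from 215 to 157 CPM (-0.45 ± 0.12, edgeR adjusted p = 0.00755), while Srebf1, the lipogenic regulator, was at 56.5 and 57.4 CPM and did not pass (0.02 ± 0.11, adjusted p = 0.889). Fads1, a fatty acid desaturase, fell from 43.6 to 35.0 CPM (adjusted p = 0.0249), a call lost in 9 of 21 fits without 1 library. The call was also lost with RLE factors, upper-quartile factors or TMM scaled to sham 47. Elovl5, an elongase, rose from 33.8 to 46.3 CPM (adjusted p = 0.00549) and Agpat2, an acyltransferase, from 3.64 to 5.94 CPM (adjusted p = 0.0282), and both calls were lost on library totals, that of Agpat2 also without PX 65. Without PX 65 the count of this list was 1 higher, and without PX 37 it was 6 higher. Acacb, the other acetyl-CoA carboxylase gene, rose from 6.96 to 14.5 CPM (1.05 ± 0.36, adjusted p = 0.0321), opposite in sign to Acaca, and its call was lost on library totals and without sham 49, sham 73, PX 58 or PX 65.

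Of the arrestin and thioredoxin list, 7 of 15 tested rose and 1 fell, with a median of 0.54. Arrdc3, another alpha-arrestin, rose by 0.54 ± 0.15 (edgeR adjusted p = 0.00668), a call lost on library totals. Txn1, the thioredoxin that Txnip protein binds, rose from 29.2 to 53.3 CPM (0.87 ± 0.30, adjusted p = 0.0318), a call lost on library totals and without PX 57, PX 58, PX 62 or PX 65. The peroxidase Prdx1, which thioredoxin reduces, rose from 44.3 to 96.6 CPM (1.12 ± 0.21, adjusted p = 3.1e-04). Txnrd2, the mitochondrial thioredoxin reductase, fell by 0.41 on the log2 scale, a call lost in 13 of 21 fits without 1 library. The call was also lost with RLE factors, upper-quartile factors, TMM scaled to sham 47 or DESeq2. The inflammasome genes Nlrp3, Pycard and Casp1, whose proteins Txnip has been linked to, averaged 1.24, 1.42 and 1.81 CPM in sham. In PX they averaged 6.89, 5.72 and 6.47 CPM. They are among the 7, but they fell under the count filter in sham alone. Their PX counts brought them into the test, so no p is given. The count of 7 and the median of 0.54 include these 3, so both rest in part on that filter. All 3 are known in macrophages, whose markers were also higher in PX, and the part of macrophages in these levels was not tested.

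Of 18 genes of glucose entry and glycolysis, 10 rose and 3 fell, with a median of 0.37. Hk3, a hexokinase of myeloid cells, is 1 of the 10, and it passed the count filter only through PX, at 2.07 to 37.4 CPM against 0 to 0.48 CPM in sham, so no fold is given. Ldha, lactate dehydrogenase A, rose from 3.46 to 22.5 CPM (2.70 ± 0.44, edgeR adjusted p = 1.1e-04). Slc2a3, the glucose transporter GLUT3, rose from 6.34 to 10.5 CPM (0.72 ± 0.18, adjusted p = 0.00325), a call lost on library totals. On library totals 2 genes of this list were called higher and 1 lower, and 1 was lower without sham 21, 22, 24, 73 or 74 or PX 36 or 41. Once the acinar score entered the fit, 4 of the other ChREBP or MondoA targets, 4 of the arrestin and thioredoxin list, 3 of the glucose list and 1 of the Mlx network were called higher. No gene of the fatty acid list was called higher there. Called lower were 1 gene each of the Mlx network, the fatty acid list and the arrestin and thioredoxin list. Mnt, Mga, Prkaa2, Srebf2, Elovl5, Arrdc3 and Txn1 were among the genes whose calls were lost there. Every call in the 5 lists was lost when macrophage and mesenchymal scores entered the fit instead.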

How the data were processed

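The authors deposited gene-level read counts for 21 libraries and a table of their own comparison of PX with sham. Tools named in the submitters' processing notes are Subread with featureCounts, limma and FastQC. Versions, strand setting and genome build are not given in these sources. The deposited count table also holds gene length (a property of each row, in bases), and the comparison table holds the authors' log2 fold changes, linear fold changes (a ratio) and p-values. Here counts were tested with edgeR 4.0.16 (R 4.3.3, quasi-likelihood with robust dispersion, TMM factors, prior count 2) after a filter on expression (minimum count 10, minimum total 15), with Benjamini-Hochberg adjustment and a threshold of 0.05. The comparison used all 21 libraries with no covariate, and BG slopes were fitted within PX, within sham and as an interaction. The SE of a fold change was taken from the F statistic. CPM is TMM-scaled unless library totals are named, and RPKM divides it by the deposited gene length. Single values were tested by permutation with 100000 resamples (1e+05), two-sided, within groups for correlations. Totals of 4001908 to 13187959 counts per library set the precision. No pair of libraries was close enough to be counted as 1, the nearest being sham 73 and sham 74 with a chi-square per degree of freedom of 4.37. Scripts were tested on simulated counts. The members and gene lists were chosen with earlier results of these data known. Genes were named by a rule: all members, up to 4 called genes of lowest p in each pathway list, Mlxip, Srebf1, Rgs16 and Acly, and the 5 genes most like and 3 most unlike Txnip. Myc, Ogt, Klf10, Gpd1, Acacb, Pfkfb3, Arrdc3, Txn1 and Txnrd2 were named after their values had been seen. DESeq2 1.42.0 and limma 3.58.1 were alternatives. Identity between member proteins was planned but not computed, and Mlxipl was not analysed here. Some genes that the rule names are not reported here, though the list counts include them.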

Additional observations from a re-analysis of the deposited data

Results flagged for a closer look

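The macrophage marker score of sham 46 was 2.80, and the next highest of the 10 sham libraries was 1.94. The gap was 0.600 of the group's range, above the critical value of 0.466 for 10 libraries. Of 15 sets of sham values checked (chance flags about 1 in 20), this was the only such case. Sham 46 also had the highest Txnip level of the sham group, 303 CPM, and without it the Txnip log2 fold change was 1.90.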

How the results depend on the processing

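No paired analysis was possible because PX and sham share no animal number. Leaving out 1 library in turn gave 1709 to 2607 genes higher and 1304 to 2258 lower (fewer lower without sham 22, 24, 73 or 74 or PX 41), 1 member higher and 1 to 2 lower. Ranges were 1.36 to 1.90 for Txnip, -0.021 to 0.16 for Arrdc4, -0.084 to 0.055 for Mlx, -0.32 to -0.22 for Pklr, -0.35 to -0.27 for Acaca and -0.21 to -0.11 for Fasn. PX slopes ran from -0.01 to 0.28 for Txnip, 0.02 to 0.10 for Arrdc4, -0.11 to -0.04 for Mlx, -0.04 to -0.01 for Pklr, 0.01 to 0.03 for Acaca and -0.0099 to 0.037 for Fasn, with 0 to 1 gene called higher. Sham slopes ran from -0.48 to 0.39 for Txnip, -0.21 to 0.13 for Arrdc4, -0.045 to 0.10 for Mlx, 0.10 to 0.17 for Pklr, -0.08 to -0.02 for Acaca and -0.08 to -0.01 for Fasn. Mlx was at 0.023 with RLE factors or DESeq2, 0.020 with upper-quartile factors, 0.027 scaled to sham 47 and 0.029 without PX 44, PX 65 and sham 46. On library totals 990 genes were higher, Arrdc4 was at -0.22, PX slopes were -0.036 (Arrdc4), -0.080 (Acaca) and -0.080 (Fasn), and sham slopes 0.073 for Acaca and 0.072 for Fasn. DESeq2 called PX slopes for 11 genes upward and 7 downward, and no filter 6 upward. Without the 2 PX of extreme BG the Pklr slope was 0.047. With the acinar score, 1306 genes were higher and 965 lower, 1 member was lower, Mlx was at 0.13 and Pklr at -0.25, and sham slopes were 0.11 (Txnip), -0.043 (Arrdc4) and -0.087 (Mlx). With macrophage and mesenchymal scores, 8 genes were higher, 2 lower and 0 members called, with Txnip at -0.21, Arrdc4 -0.24, Mlx 0.26, Pklr -0.013 and Acaca -0.29. With the adipocyte score, 82 genes were higher, 2 lower and 0 members called, with Txnip at 0.049, Arrdc4 -0.26, Mlx 0.20, Pklr -0.14, Acaca -0.36 and Fasn 0.029. That score is Fabp4 alone and has an R squared of 0.619 with the group term, so the 2 cannot be told apart there. With PX of BG 121 or less, 957 genes and 1 member were lower, Mlx was at 0.10 and Pklr at -0.23. Pair correlations turned on library totals to -0.13 (Txnip with Arrdc4), -0.30 (Txnip with Acaca), 0.67, 0.63 and 0.55 (Arrdc4 with Mlx, Pklr and Fasn), 0.88 and 0.81 (Mlx with Acaca and Fasn). Without the 2 farthest libraries they turned to -0.015 (Txnip with Arrdc4), -0.12 (Txnip with Acaca), 0.078 and 0.10 (Arrdc4 with Mlx and Pklr) and 8.5e-04 (Mlx with Fasn). Within PX, Mlx with Fasn was 0.029. Within sham, Txnip was at -0.61, 0.30 and -0.23 with Arrdc4, Pklr and Acaca, Arrdc4 at 0.22, 0.026, -0.20 and 0.22 with Mlx, Pklr, Acaca and Fasn, Mlx at -0.053 with Pklr, and Pklr at -0.0051 and -0.43 with Acaca and Fasn. The causes were not tested. With RLE factors 2185 genes were higher and 1646 lower. Low counts limit genes under a few CPM.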

Other observations

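Pfkfb3, which makes the activator of phosphofructokinase, averaged 2.33 CPM in sham and 5.52 in PX. It fell under the count filter in sham alone, so no fold or p is given. Ogt, which adds the sugar modification that stabilizes ChREBP, fell from 341 to 255 CPM (-0.42 ± 0.16, edgeR adjusted p = 0.0442), a call lost in 18 of 21 fits without 1 library. Both were picked after their values had been seen.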
